A study of Homo sapiens with 4 samples.

Results

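Chromosome 20 is described here through every broad H3K9me3 peak that was deposited for it on the human build hg19. These were 5914 of 326674 peaks in list 1 and 5795 of 264919 peaks in list 2, counted over chromosomes 1 to 22 and X. The chromosome was selected on its covered share, the highest of all chromosomes in these same lists, so its coverage is given as a description and was not tested. The samples were 2 chromatin immunoprecipitations with an Abcam antibody against H3K9me3 and 2 inputs without antibody. All 4 came from cross-linked U2OS cells, an established and aneuploid human osteosarcoma line, and all carry the name KRAB-IDR3-TCF3 in their titles, which the labels do not explain. The labels of the antibody samples point to list 2 and those of the inputs to list 1, although every peak name in either list marks an immunoprecipitation. Neither list was therefore assigned to a group, the lists were not compared as antibody against input, and no value has a replicate error. The depth is unknown, since neither list holds counts of reads.

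H3K9me3 is laid down by methyltransferases such as SUV39H1 and SETDB1 and is bound by HP1 proteins, whose alpha form (HP1a) is encoded by CBX5. Bound HP1 can recruit more methyltransferase, a loop by which the mark spreads along chromatin in broad blocks. The mark is best known from satellite repeats beside centromeres, from silenced transposons and from the clusters of KRAB zinc finger genes on chromosome 19. Chromosome 20 is a small metacentric chromosome with no such large cluster. In the RefSeq gene table on GRCh38.p14, it had 537 protein-coding symbols, of which 9 were numbered ZNF symbols, while chromosome 19 had 250 numbered ZNF symbols among 1451. That table served for names only, since its coordinates do not belong to hg19, and no gene was placed on a peak. No sequence is shown because none of the sequence tables used here is on hg19.

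Peaks covered 36.6 Mb of chromosome 20 in list 1 and 24.6 Mb in list 2. With the peak-free stretch of 3.11 Mb around the centromere left out, that was 61.2% and 41.0% of the chromosome, the highest share of the 23 chromosomes in both lists. Chromosome 8 came next, at 60.2% and 38.05%. Over full spans, with peak-free stretches kept, chromosome 8 was above chromosome 20 in list 1, at 59.0% against 58.1%. In list 2 chromosome 20 stayed above, at 39.0% against 37.3%. The other autosomes together were covered 49.1% in list 1 and 27.7% in list 2, so the share on chromosome 20 was 1.25 and 1.48 times theirs. At a −log10 q of 2 or more these ratios were 4.37 and 5.69, from few peaks. Chromosome 20 held 15 such peaks in list 1 (0.254% of its peaks, against 0.0419% of all peaks) and 65 in list 2 (1.12%, against 0.253%). These shares were not corrected for the uneven DNA copy number of this line, whose part in them was not tested.

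**Figure D1:**
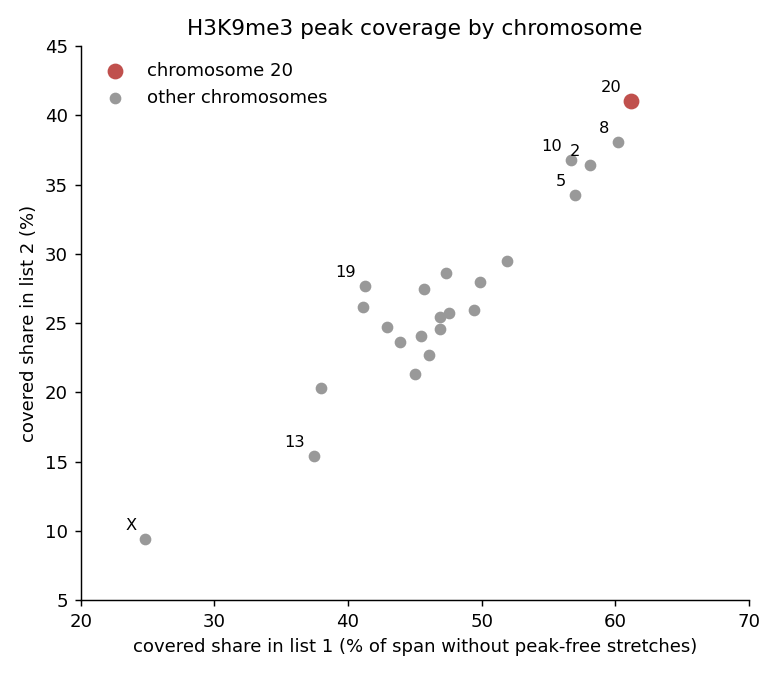
Covered share of each chromosome in list 1 (x axis, %) against list 2 (y axis, %), with stretches of at least 1 Mb without a peak in either list left out of the span; each point is 1 chromosome. Chromosome 20 lies at the upper right, at 61.2% and 41.0%, above chromosome 8 at 60.2% and 38.05%.

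The high coverage of chromosome 20 went with wide peaks and not with many peaks. List 1 had 98.8 peaks per Mb on chromosome 20 and 116 per Mb on the other autosomes, and list 2 had 96.8 and 95.4 per Mb. In peaks per Mb the chromosome ranked 21 of 23 in list 1 and 10 of 23 in list 2. The median peak was 2454 bp wide on chromosome 20 and 2027 bp on the other autosomes in list 1, and 2086 and 1579 bp in list 2. In list 1, 50% of the covered length of chromosome 20 lay in peaks of at least 15.3 kb, while on the other autosomes this width was 8.84 kb. In list 2 these widths were 8.57 and 5.25 kb, and by this measure chromosome 20 ranked 1 of 23 in list 1 and 3 of 23 in list 2. Peaks of at least 25 kb numbered 266 on chromosome 20 in list 1, which was 4.50% of its peaks (Wilson 95% interval 3.998 to 5.06%), against 1.75% of all peaks. In list 2 they numbered 104, or 1.79% (1.48 to 2.17%), against 0.582% of all peaks. These intervals cover counting error only and treat peaks as independent. They do not allow for the choice of the chromosome by its covered length, of which such peaks held 34.4% in list 1 and 17.0% in list 2.

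Chromosome 8, next in coverage, had a median peak width of 2457 bp in list 1, as on chromosome 20, and of 1781 bp in list 2. On chromosome 8, 50% of the covered length lay in peaks of at least 12.4 kb in list 1 and 7.10 kb in list 2. Chromosome 10 and chromosome 2, which also ranked high in coverage, lay between chromosome 20 and the other autosomes in peak width. Peaks of at least 25 kb made up 3.77% of peaks on chromosome 10 and 3.32% on chromosome 2 in list 1, and 1.37% and 1.05% in list 2. The fold enrichment given by the authors, the signal of a peak over the background of the peak caller, had a median of 1.69 on chromosome 20 and 1.65 on the other autosomes in list 1. In list 2 it was 2.18 and 2.12. On chromosome 20, 52 peaks of list 1 had a q-value of 0.05 or less, or 0.879% against 0.190% of all peaks, and 295 peaks of list 2, or 5.09% against 2.07% of all peaks. No peak of chromosome 20 reached a fold of 5. The highest were 4.91 in list 1 and 4.96 in list 2, while the highest of the other autosomes were 279 and 298. The 99th percentile of fold went the other way. It was 2.73 on chromosome 20 and 2.42 on the other autosomes in list 1, and 3.42 and 3.03 in list 2.

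The arms of chromosome 20 were covered to similar degrees in list 1 and more unequally in list 2, with the short arm lower in both. The short arm, from 0 to 26.3 Mb, was covered 59.4% in list 1 and the long arm, from 29.4 to 63.0 Mb, 62.4%, a ratio of 0.952. In list 2 the short arm was covered 36.4% and the long arm 44.6%, a ratio of 0.817. When list 1 was held to the p limit of list 2, by dropping whole peaks under the lowest −log10 p of that list, its short arm was covered 25.9% and its long arm 47.1%, a ratio of 0.550. This kept only 1642 of its 5914 peaks on chromosome 20, 678 on the short arm and 964 on the long arm. With all deposited peaks, the short arm held 2838 peaks of list 1 and 3068 of list 2. The long arm held 3076 and 2727, which were fewer per Mb in both lists. The first peaks began after 60.1 and 60.8 kb, and 4 peaks of list 1 and 5 of list 2 ended past 26.3 Mb. These counted as short arm peaks, but their length past that border did not enter its covered share.

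The highest coverage was reached on the long arm and not on the short arm, which held the lowest window of the arms. Its 26 windows of 1 Mb averaged 59.9% ± 14.4 (SD over windows; lowest 21.9%, highest 82.4%) in list 1 and 36.8% ± 11.4 (lowest 9.35%, highest 59.1%) in list 2. The 33 windows of the long arm averaged 62.97% ± 19.7 (lowest 28.02%, highest 93.5%) in list 1 and 44.9% ± 21.8 (lowest 11.9%, highest 84.9%) in list 2. The last of them runs only to the last peak end, at 62963652. The SD of list 2 was thus 11.4 points on the short arm and 21.8 points on the long arm. Neighbouring windows were less correlated in rank on the short arm, whose windows also spread less. A rank correlation does not measure by how many points neighbours differed. Spearman's rho between a window and the next was 0.19 over 25 pairs of the short arm in list 1 and 0.64 over 32 pairs of the long arm, and in list 2 it was 0.09 and 0.64. These are descriptions, since neighbouring windows share peaks that cross their border.

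**Figure D2:**
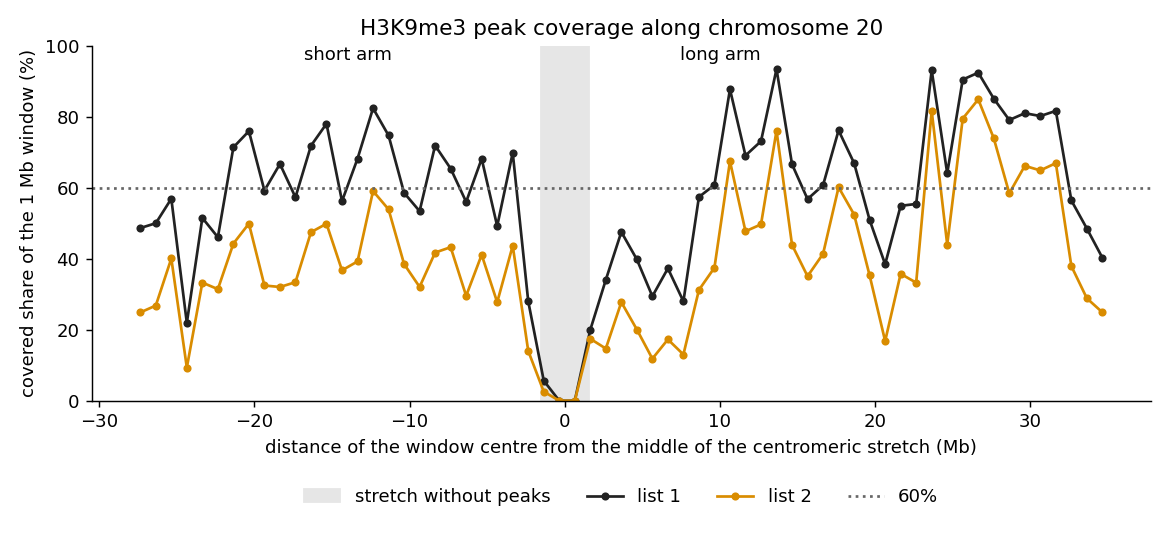
Covered share of each 1 Mb window of chromosome 20 (y axis, %) by the distance of its centre from the middle of the centromeric stretch (x axis, Mb; short arm left), for list 1 (black) and list 2 (orange). The short arm stays at or under 82.4% and 59.1%, while the long arm runs from a low stretch beside the centromere to windows above 90% in list 1 and above 80% in list 2 in its distal part.

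Dense windows, covered more than 60% in both lists, numbered 10 of 63 on chromosome 20, or 15.9% against 4.68% of all windows. Some other chromosomes came close, with 14.4% on chromosome 8, 12.3% on chromosome 2 and 11.9% on both chromosome 19 and chromosome 10. All 10 dense windows of chromosome 20 lay on the long arm, and the short arm had 0 of 26. The densest by the lower value of the lists was the window from 54000001 to 55000000, at 92.5% in list 1 and 84.9% in list 2. It was followed by the window from 51000001, at 93.1% and 81.7%, and by the window from 53000001, at 90.5% and 79.5%. The window from 41000001 was covered 93.5% and 76.1%, the highest share of any chromosome 20 window in list 1. The others began at 38000001, 45000001, 55000001, 57000001, 58000001 and 59000001, with shares of 76.2% to 87.8% in list 1 and of 60.2% to 74.0% in list 2.

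The 60% limit fell close to some windows. Just inside it was the window from 45000001, with 60.2% in list 2. Just outside were the window from 15000001, the densest of the short arm, at 82.4% and 59.1% in list 1 and list 2, and that from 56000001, at 79.1% and 58.5%. This one parted the dense runs of at least 2 neighbouring windows, which were 53 to 56 Mb and 57 to 60 Mb. In the first run the mean was 89.4% ± 3.79 in list 1 and 79.5% ± 5.48 in list 2. In the second run it was 81.0% ± 0.728 and 66.03% ± 1.04.

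Sparse windows, covered less than the median of all windows in both lists (46.2% and 22.4%), numbered 12 of 63, or 19.05% against 46.1% of all windows. The share was similar on chromosome 10 (20.7%), chromosome 8 (21.2%) and chromosome 5 (21.5%). Windows inside long peak-free stretches counted as sparse on every chromosome and entered the medians. The shares of sparse windows were not corrected for such stretches. Of the 12 on chromosome 20, 4 held or bordered the centromeric stretch, 2 lay elsewhere on the short arm and 6 on the long arm. The sparsest of those wholly on an arm was the window from 3000001 to 4000000 on the short arm, at 21.9% in list 1 and 9.35% in list 2, between neighbours at 56.9% and 51.5% in list 1. The other on the short arm was the window from 25000001, next to the centromere, at 28.03% and 14.0%. Apart from the neighbouring sparse windows around the centromere, from 25 to 31 Mb, the one sparse run lay on the long arm from 32 to 36 Mb, where 4 windows averaged 33.6% ± 5.80 in list 1 and 15.6% ± 3.81 in list 2. The window from 30000001, next to the centromeric ones, was covered 34.1% and 14.7%, and the window from 48000001, which stood alone, 38.5% and 16.8%.

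The long arm fell into stretches of several Mb, with borders set by eye from these values. The 6 windows from 30 to 36 Mb averaged 36.04% ± 7.22 in list 1 and 17.5% ± 5.87 in list 2. The next 12, from 36 to 48 Mb, averaged 68.3% ± 12.7 and 48.2% ± 13.9. A dip from 48 to 51 Mb, at 49.6% ± 9.66 and 28.6% ± 10.3, led to the 9 windows from 51 to 60 Mb, at 83.1% ± 8.93 and 69.0% ± 12.8. The last 3 windows of the chromosome were back at 48.4% ± 8.08 and 30.6% ± 6.69. On the short arm, the first 6 windows averaged 45.9% ± 12.3 and 27.7% ± 10.4. The remaining 19 up to 25 Mb were at 66.1% ± 9.21 and 40.9% ± 8.64. Both ends of the chromosome were thus covered less than the stretch inward of them in both lists.

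Some of the changes between neighbouring windows were abrupt. The largest in list 2 was at 51 Mb, where coverage was 33.3% before and 81.7% after, a step of 48.4 points, and the same border in list 1 had a step of 37.7 points. The largest in list 1 was at 25 Mb, where coverage was 28.03% on the side of the centromere and 69.9% on the distal side, a step of 41.9 points. The median size of all steps was 10.4 points in list 1 and 11.6 points in list 2. At 52 and 53 Mb, list 2 fell by 37.7 points and then rose by 35.5 points, so that the window from 52000001, at 64.1% and 44.0%, stood as a dip between dense windows.

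Coverage beside the centromere was below the mean of the arm on both arms, and it stayed low for longer on the long arm. In the Mb next to the peak-free stretch, coverage of the short arm was 18.1% in list 1 and 7.74% in list 2, against 32.6% and 22.5% on the long arm. The long arm value included 2 nearly full windows of 100 kb, from 29800001 (94.2% and 85.9%) and from 29900001 (87.3% and 78.2%). In the next Mb, the short arm was already at 63.5% and 41.1%, while the long arm was at 31.1% and 11.4%. From 2 to 5 Mb away the short arm was covered 59.7% and 33.1% and the long arm 40.5% and 21.3%. The stretch without peaks in both lists ran from 26319498 to 29434103, and a shorter one on the long arm from 29653491 to 29803903. The lists do not show whether reads could be placed there or beside them, so few or no peaks need not mean little H3K9me3. The peaks that bordered the centromeric stretch had folds of 1.44 and 1.90 on the short arm side and 1.58 and 2.63 on the long arm side in list 1 and list 2.

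Dense windows were made of wide peaks. Covered share is itself made of the widths of these peaks, so part of this link is fixed by how the windows were classed. The 10 dense windows held 52.2 peaks per window in list 1 with a median width of 5413 bp, the 41 windows of the arms that were neither dense nor sparse held 107 with 2620 bp, and the 8 sparse windows of the arms held 118 with 1351 bp. In list 2 dense windows held 81.8 peaks with a median width of 4210 bp, those between 108 with 2005 bp, and sparse ones 62.1 with 1389 bp. Dense windows thus held the fewest peaks in list 1, whereas in list 2 the windows between held the most. Over the 59 windows of the arms, Spearman's rho of covered share and number of peaks was −0.56 in list 1 and 0.28 in list 2, and rho of covered share and median width was 0.86 and 0.82. Peaks of at least 25 kb held 67.6% of the covered length in dense windows of list 1 and 7.35% in sparse ones. In list 2 they held 38.3% and 0%. The median fold was 1.87 in dense windows, 1.70 in those between and 1.61 in sparse ones of list 1, and 2.32, 2.16 and 2.17 in list 2.

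**Figure D3:**
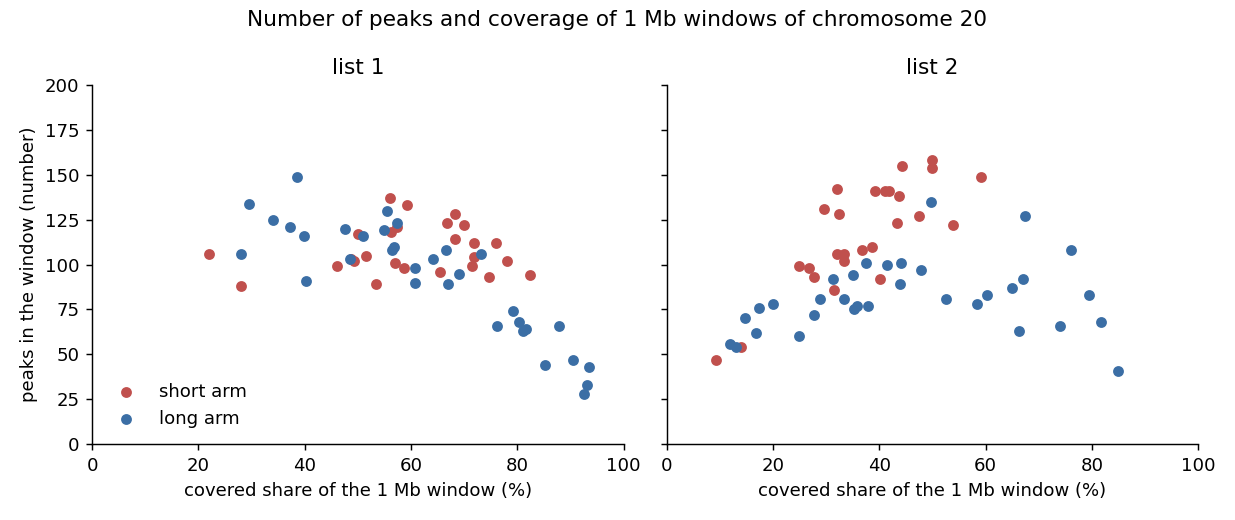
Number of peaks (y axis) against covered share (x axis, %) of the 59 windows of 1 Mb that lie wholly on an arm of chromosome 20, for list 1 (left) and list 2 (right), short arm red and long arm blue. In list 1 the windows above 90% hold 28 to 47 peaks, and in list 2 the short arm reaches 158 peaks per window, at middle coverage.

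Windows of like coverage held more peaks on the short arm in list 2, while in list 1 their numbers of peaks were close. Among windows covered 30 to 50% in list 2, a band chosen after seeing the data, the 18 of the short arm held 125 ± 22.3 peaks and the 12 of the long arm 93.3 ± 16.4 (SD over windows), at a mean coverage of 39.5% and 39.4%. Their median widths averaged 2015 bp on the short arm and 2029 bp on the long arm. Among windows covered 50 to 75% in list 1, the 18 of the short arm held 112 ± 14.2 peaks and the 13 of the long arm 107 ± 12.5, a difference smaller than the spread between windows. The median widths of these list 1 windows averaged 3166 bp on the short arm and 2135 bp on the long arm.

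Peak widths separated the arms more than coverage did. In list 1, 50% of the covered length lay in peaks of at least 11.2 kb on the short arm and of at least 22.5 kb on the long arm, and in list 2 in peaks of at least 5.35 and 13.1 kb. Peaks of at least 25 kb numbered 79 on the short arm and 187 on the long arm in list 1, and 8 and 96 in list 2. They held 17.6% of the covered length of the short arm and 46.9% of that of the long arm in list 1, and 2.54% and 26.3% in list 2. Peaks of 2 to 10 kb held 38.9% of the covered length of the short arm and 22.6% of that of the long arm in list 1, and 62.3% and 33.6% in list 2. Peaks of 10 to 25 kb held 36.6% and 23.8% in list 1, and 19.5% and 32.4% in list 2. The median width had no common direction. It was 2885 bp on the short arm and 2074 bp on the long arm in list 1, a ratio of 1.39, and 1917 and 2345 bp in list 2, a ratio of 0.817. With list 1 held to the p limit of list 2, its ratio turned to 0.851. Peaks under 700 bp were 15.5% of the short arm and 20.0% of the long arm peaks in list 1, and 20.1% and 18.0% in list 2.

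**Figure D4:**
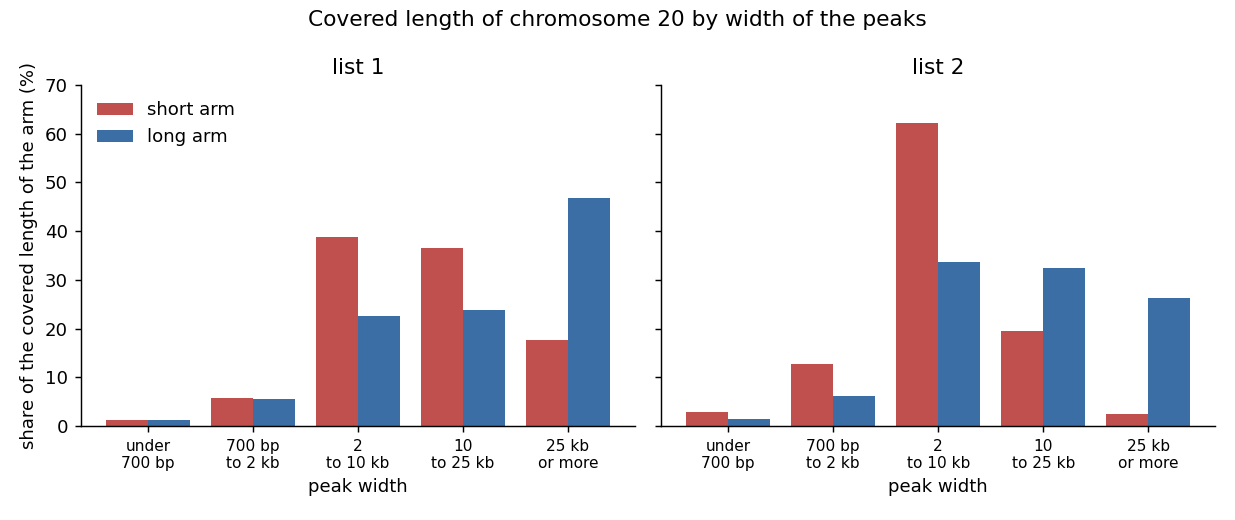
Share of the covered length of each arm of chromosome 20 (y axis, %) that lies in peaks of a given width (x axis), short arm red and long arm blue, for list 1 (left) and list 2 (right). Peaks of at least 25 kb hold 17.6% of the short arm and 46.9% of the long arm length in list 1, and 2.54% and 26.3% in list 2.

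The widest peaks of both lists lay in the distal long arm. In list 1 the widest ran from 54542875 to 54795853, 253 kb with a fold of 2.44. Peaks of list 2 covered 94.5% of it, split over 9 peaks of which the widest was 86.5 kb. The next ran from 55367429 to 55582809 (215 kb, fold 2.41) and from 51189884 to 51372009 (182 kb, fold 2.44). In list 2 the widest ran from 51172614 to 51281630, 109 kb with a fold of 2.75, and 98.9% of it was also covered in list 1. It was followed by peaks of 99.2 kb from 55448588 to 55547783 and of 86.5 kb from 54542974 to 54629522, both wholly inside peaks of list 1. The widest of the short arm were smaller, 79.3 kb from 8856984 to 8936332 in list 1 and 39.9 kb from 22779863 to 22819802 in list 2. None of these peaks had a q-value of 0.05 or less. In the order named, −log10 q on the long arm was 0.858, 0.859 and 0.860 in list 1 and 1.19, 1.22 and 1.295 in list 2. On the short arm it was 0.471 and 0.648. Of the 5 widest of list 2, only the peak from 46667116 to 46746895 reached that q-value, with a −log10 q of 1.90.

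At a finer scale, nearly full stretches were rarer on the short arm than on the long arm. Of the windows of 100 kb, 9 of 263 on the short arm and 74 of 335 on the long arm were covered at least 90% in list 1. In list 2 these were 0 and 23. On the other autosomes the shares were 4.42% and 0.800%, while the long arm had 22.1% and 6.87%. Windows covered under 10% were 3.42% of the short arm and 1.49% of the long arm in list 1, and 11.0% and 16.1% in list 2. On the other autosomes 6.84% and 24.8% of windows were this low, a larger share than on either arm. The medians of the arms were close, 67.3% on the short arm and 66.6% on the long arm in list 1, and 38.3% and 41.5% in list 2.

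**Figure D5:**
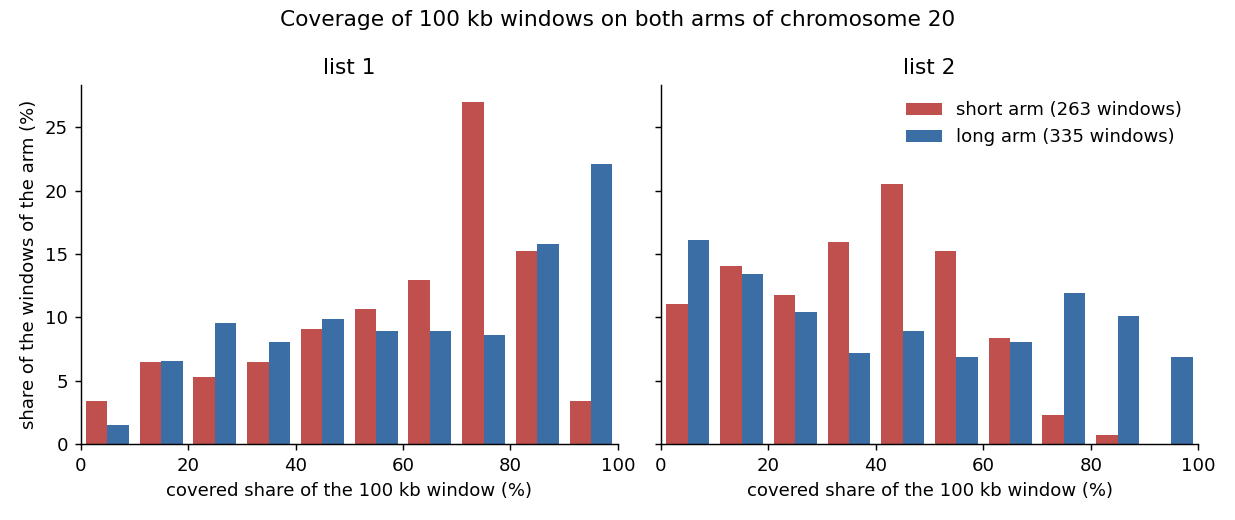
Share of the 100 kb windows of each arm of chromosome 20 (y axis, %) by covered share (x axis, %, in steps of 10 points), short arm red and long arm blue, for list 1 (left) and list 2 (right). At least 90% coverage was reached by 3.42% of the short arm and 22.1% of the long arm windows in list 1, and by 0% and 6.87% in list 2.

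Peaks less than 10 kb apart were joined into domains. List 1 formed 406 domains on chromosome 20, or 6.78 per Mb against 9.29 per Mb on the other autosomes, and list 2 formed 764, or 12.8 against 17.0 per Mb. Domains of at least 100 kb spanned 75.8% of chromosome 20 and 64.1% of the other autosomes in list 1, and 47.5% and 27.6% in list 2. Those of at least 1 Mb numbered 8 in list 1 and 3 in list 2, and spanned 24.6% and 5.97% of the chromosome. Chromosome 10 and chromosome 2 had larger shares in such domains, at 27.7% and 31.1% in list 1 and 6.91% and 6.12% in list 2, and domains of up to 4.46 and 5.28 Mb in list 1. No domain of chromosome 20 was longer than 2.17 Mb.

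Domains of at least 1 Mb numbered 4 on the short arm and 4 on the long arm in list 1, while in list 2 all 3 were on the long arm. The longest of list 1 was on the short arm, from 14320880 to 16488191, and spanned 2.17 Mb with 219 peaks that covered 78.5% of it. List 2 covered 52.7% of the same stretch and split it into 10 domains. The next of list 1 was on the long arm, from 52779876 to 54934607, and spanned 2.15 Mb with 85 peaks that covered 91.6%. List 2 covered 81.6% of that stretch in 5 domains. The longest of list 2 spanned 1.34 Mb, from 53603938 to 54940712, inside this domain of list 1 except for its last 6.11 kb. The longest of list 2 on the short arm spanned 0.641 Mb. The others of at least 1 Mb in list 2 ran from 40589180 to 41813205 (1.22 Mb) and from 50813118 to 51826086 (1.01 Mb).

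Domain borders were steps in some places and slopes in others. By the joining rule, at least 10 kb without a peak of the same list lie beyond each border. Part of each drop in list 2 at its own borders is therefore fixed in advance. Behind the longest domain of list 2, the last 100 kb inside were covered 84.4% in list 1 and 77.0% in list 2, against 54.1% and 30.2% in the 100 kb beyond. Behind the domain that ended at 55913860 in list 2 and at 55938443 in list 1, coverage was 91.1% and 65.97% inside and 34.2% and 6.53% beyond. Before the domain that began at 50813118, coverage was 94.9% and 85.2% inside and 51.9% and 24.9% outside. Before the domain that began at 55091611, coverage was 91.2% and 78.6% inside and 54.1% and 35.4% outside. The domain that ended at 41813205 in list 2 had no such step, with 97.1% and 61.6% inside and 87.7% and 60.1% beyond, and list 1 ran on for 422 kb. Behind the domain that ended at 51826086, coverage was 84.8% and 65.5% inside and higher beyond, at 91.8% and 69.9%. Before the domain that began at 58791298, it was 80.9% and 69.0% inside and 83.1% and 64.4% outside.

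Peaks of higher enrichment made up a smaller share on the short arm than on the long arm. A q-value of 0.05 or less was found for 4 peaks of the short arm and 48 of the long arm in list 1, or 0.141% and 1.56%. In list 2 these were 42 and 253 peaks, or 1.37% and 9.28%. Over all chromosomes the shares were 0.190% in list 1 and 2.07% in list 2, so the short arm was somewhat below them and the long arm above. At a −log10 q of 2 or more, the short arm held 0 and the long arm 15 in list 1, and 4 and 61 in list 2. In list 2 no window of the short arm held more than 5 peaks at a q-value of 0.05 or under. On the long arm, the window from 46000001 held 20, that from 45000001 held 18, that from 56000001 held 17 and that from 61000001 held 16. Dense windows held 9 of the 52 such peaks in list 1 and 66 of the 295 in list 2. These were 1.72% and 8.07% of the peaks in dense windows, against 0.817% and 4.41% in windows that were neither dense nor sparse and 0.741% and 6.24% in sparse windows of the arms. Peaks with a q-value of 0.05 or less were wider than the rest, with a median of 8942 bp against 2423 bp in list 1 and 6752 bp against 1971 bp in list 2. The single widest peak of each list was not among them.

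The peaks of highest fold on chromosome 20 were narrow to middle-sized and lay on the long arm. The highest of list 1 ran from 46523478 to 46524981, 1.504 kb with a fold of 4.91, and its partner in list 2 had a fold of 4.12. The next ran from 56918103 to 56925845, 7.74 kb with a fold of 4.39, against 4.64 for its partner, and from 48644390 to 48647054, 2.67 kb with a fold of 4.27, against 4.70. In list 2 the highest ran from 61883173 to 61888224, 5.05 kb with a fold of 4.96, and its partner in list 1 had a fold of 3.56. Of the 5 highest in each list, all had a partner in the other list, and 3 pairs were among the 5 highest in both. The highest of the short arm were 3.02 in list 1, from 24915520 to 24918071, and 4.44 in list 2, from 25321130 to 25322628. The folds were not corrected for repeats of which the assembly holds too few copies.

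The lists shared more of chromosome 20 than of the other autosomes. At least 1 bp was shared by 3328 peaks of list 1, or 56.3% (Wilson 95% interval 55.01 to 57.5%), against 50.8% of all peaks and 51.8% on the other autosomes. In list 2 it was 5389 peaks, or 93.0% (92.3 to 93.6%), against 90.1% of all peaks and 90.4% on the other autosomes. These shares were not corrected for coverage, which differed as well. In length, 22.8 Mb were shared, or 62.4% of what list 1 covered and 92.9% of what list 2 covered. On the other autosomes these shares of length were 49.7% and 88.3%. On the short arm 54.7% and on the long arm 68.1% of the covered length of list 1 was also covered in list 2. Across the 59 windows of the arms, Spearman's rho of the covered shares of the lists was 0.96, and it was 0.93 over the 26 windows of the short arm and 0.98 over the 33 of the long arm. Over the 2969 windows of the other chromosomes rho was 0.97, so by this measure the lists were no more alike on chromosome 20.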

How the data were processed

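The deposited files were 2 broad peak lists on hg19 without headers. The submitters' processing notes name MACS2 (version 2.2.7.1), Bowtie2 (version 2.5.0), Trim Galore (version 0.6.7) and bcl2fastq (version 2.17), with no role or order. For the cutoff, the control, duplicate reads and any pooling, the sources used here give nothing. The deposited fold enrichment of a peak is a ratio by the authors, and its deposited −log10 p and −log10 q are the authors' too. The deposited display score was not used. All other deposited columns used were peak starts and ends.

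Peaks on chromosomes 1 to 22 and X were used, and coordinates are 1-based. Chromosome spans end at the last peak end. Stretches of at least 1 Mb without a peak in either list were left out of the spans. Windows of 1 Mb inside such stretches were kept. Arms followed fixed borders in Mb, and peaks on them were counted by their start. Windows were 1 Mb and 100 kb, and a last window shorter than 1 Mb was kept from 50% of its length on. Peaks were placed in windows by their middle. Overlap needed at least 1 bp. No test across replicates was possible, because the lists belong to no sample. Intervals are Wilson 95% intervals.

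Named regions were the 10 densest and 10 sparsest windows, runs of dense or sparse windows, the 5 largest steps, and the 5 longest domains and the 5 widest and highest peaks per list, from which the text names some. The members and lists were chosen with earlier results of these data known. Interval functions were checked on simulated data. Versions were matplotlib 3.10.9, scipy 1.17.1, numpy 2.4.6, pandas 2.3.3 and Python 3.11.15.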

Additional observations from a re-analysis of the deposited data

How the results depend on the processing

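No paired analysis was possible because neither list was tied to a sample. Leaving out a replicate could not be done for the same reason. The short arm stayed below the long arm and chromosome 20 above the other autosomes in every alternative run. The ratio of the short to the long arm was 0.952 in list 1 and 0.817 in list 2. It was 0 and 0.0185 with −log10 q of at least 2, 0.902 and 0.651 for peaks with more than the median fold, 0.827 and 0.712 weighted by fold, and 0.943 and 0.807 without 2 Mb beside the centromeric stretch and at the ends. It was 0.765 for base pairs in both lists, and 0.550 for list 1 held to the p limit of list 2. The ratio of chromosome 20 to the other autosomes, 1.25 and 1.48, was in the same order 4.37 and 5.69, 1.40 and 1.69, 1.34 and 1.57, 1.29 and 1.58, then 1.56 and 1.80. Chromosome 20 ranked first in these runs except in list 1 with −log10 q of at least 2, where it ranked 2. With peak-free stretches kept in the spans, it was also behind chromosome 8 in list 1. Its rank was not computed for base pairs in both lists or weighted by fold. Of the 10 dense windows, 5 were left above 70%, and the number was 14 above 50%, 10 with windows shifted by 0.5 Mb and 10 with list 1 limited. Joining under 3 kb gave 2142 domains in list 1 and 2678 in list 2, and joining under 25 kb 69 and 221. The ratio of median widths in list 1, 1.39, reversed to 0.851 with list 1 limited, and the cause was not tested. Depth is unknown, and values at −log10 q of at least 2 rest on 15 and 65 peaks.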
